A study of Homo sapiens with 2 samples.

Results

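The wide peaks were the Flag-ETV4 binding intervals of 2000 bp or more whose fold enrichment at the summit was below 100. They were chosen by these measured values from the peak list, and 1461 of 54389 peaks met both conditions, which is 2.69% of the peaks and 10.3% of the bases that the list covers (3.78 Mb of 36.8 Mb). Another 27 intervals of 2000 bp or more had a fold of 100 or more and were left out. The cells were A549, a human lung adenocarcinoma line. They carried an shRNA against ETV4 and had been transfected again with Flag-ETV4, so the signal is that of the introduced, tagged protein. The experiment had 1 anti-Flag immunoprecipitate and 1 input without antibody from the same line, and the antibody is a Sigma product in the sample labels but a CST product in the methods. There was no replicate, so no test and no SD can be given. Intervals given after a share are Wilson 95% intervals, those after a pileup are exact Poisson 95% intervals, and both cover counting error only.

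ETV4 belongs with ETV1 and ETV5 to the PEA3 group of ETS transcription factors, which bind DNA through the ETS domain at sites built around the core GGAA. These factors are phosphorylated by ERK, and their targets overlap with genes that growth factors switch on through the same kinase pathway. Immediate early genes, such as those of the FOS, JUN and EGR families, are short genes that cells transcribe within minutes of such a signal without making new protein. A peak caller reports an interval wherever adjoining positions stay above threshold, so a wide interval can hold several sites of binding or broad signal, and the deposited list gives only 1 summit for each interval and nothing of the shape inside it.

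Promoters that held the summit of a wide peak either lacked or held CCGGAAG, the sequence counted here as the ETS motif. Both kinds are shown because the results on motifs turn on them. The first kind held matches to the core GGAA without CCGGAAG, and other ETS sites built around the core were not counted. The 250 bases before the transcription start of 3 immediate early genes are given 5′ to 3′ on the strand of the gene (RefSeq, GRCh38), with GGAA and its complement TTCC in capitals. They lie at chr5:138465229-138465478 (plus strand) for EGR1, at chr19:39406597-39406846 (plus strand) for ZFP36 and at chr19:16324576-16324825 (plus strand) for KLF2.
EGR1: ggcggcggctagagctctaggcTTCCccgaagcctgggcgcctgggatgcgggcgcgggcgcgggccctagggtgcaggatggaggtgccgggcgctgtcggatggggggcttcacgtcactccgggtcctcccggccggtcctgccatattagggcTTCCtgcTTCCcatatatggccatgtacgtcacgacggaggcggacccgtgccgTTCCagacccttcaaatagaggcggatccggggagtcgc
ZFP36: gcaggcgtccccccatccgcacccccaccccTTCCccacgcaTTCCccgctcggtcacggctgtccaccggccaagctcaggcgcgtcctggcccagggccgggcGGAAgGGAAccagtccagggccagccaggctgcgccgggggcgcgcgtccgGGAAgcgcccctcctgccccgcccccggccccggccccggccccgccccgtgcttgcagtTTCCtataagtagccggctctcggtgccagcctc
KLF2: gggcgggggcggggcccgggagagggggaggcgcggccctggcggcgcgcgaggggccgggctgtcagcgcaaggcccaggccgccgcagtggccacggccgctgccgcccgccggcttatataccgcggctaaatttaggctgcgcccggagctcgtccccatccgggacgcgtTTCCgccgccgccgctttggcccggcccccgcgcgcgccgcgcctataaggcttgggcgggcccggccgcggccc
The summit lay 233 bp before the start of EGR1, 160 bp before that of ZFP36 and 22 bp after that of KLF2. The stretches held 4, 6 and 1 matches to the core, and none to the longer ETS motif CCGGAAG on either strand.

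The second kind held CCGGAAG beside the summit. The 6 stretches with the highest pileup at the summit, and those of ORC4 and SPRY1 from the gene lists, are given as 29 bases on the strand of the gene, with CCGGAAG or its complement CTTCCGG in capitals.
DCAF5: ccgcccgcgttCTTCCGGccagccccccg
ATP6V1D: gcctgtgacaaCCGGAAGcggaagtgaaa
TOMM6: gccggtagcagCCGGAAGtgccagaccgg
FKBP1A: aggcctccgggCTTCCGGaggtctcgggg
TRIM39: cgcggcttccgCTTCCGGcgagtattgtg
RBCK1: gtcccgccccaCTTCCGGggccgccactt
ORC4: gcgctagcgacCCGGAAGacattgtagcg
SPRY1: gccctccgcagCCGGAAGggggccgcggg
They lie at chr14:69153307-69153335 (DCAF5, minus), chr14:67359850-67359878 (ATP6V1D, minus), chr6:41787603-41787631 (TOMM6, plus), chr20:1393209-1393237 (FKBP1A, minus), chr6:30326871-30326899 (TRIM39, plus), chr20:408274-408302 (RBCK1, plus), chr2:148020926-148020954 (ORC4, minus) and chr4:123398308-123398336 (SPRY1, plus). The motif was 42 bp from the summit at DCAF5, 22 bp at ATP6V1D, 1 bp at TOMM6, 7 bp at FKBP1A, 78 bp at TRIM39, 28 bp at RBCK1, 18 bp at ORC4 and 10 bp at SPRY1. DCAF5, a substrate receptor of a ubiquitin ligase, had the highest pileup of these with 537 fragments (95% confidence interval 493 to 584), whereas SPRY1, an inhibitor of receptor tyrosine kinase signalling, had 49 (36.3 to 64.8).

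The median width of the wide peaks was 2373 bp, with quartiles of 2154 and 2777 bp and a maximum of 7708 bp. Most were only slightly above the limit, since 869 were under 2500 bp, 347 were between 2500 and 2999 bp, 189 between 3000 and 3999 bp and 56 were 4000 bp or more. The narrowest lay at PLEKHA8P1 and ANO6 (2000 bp, fold 21.6), at RIPOR1 (2000 bp, fold 40.6) and at RBCK1 (2001 bp, fold 91.4). Just outside the limit were peaks at ELFN1 (1999 bp, fold 13.8), SRGAP1 (1999 bp, fold 37.9) and VLDLR (1998 bp, fold 21.5). On the side of the fold, CD70 at 99.6 was inside, and PHOSPHO1 at 100.4, ERF at 102 and PDE11A at 103 were outside.

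Fold enrichment, the ratio of the summit pileup plus 1 to the control level plus 1, had a median of 32.2 in the wide peaks and ranged from 4.59 to 99.6. It was 9.20 in the peaks under 2000 bp, and 17 wide peaks were below the median of all peaks, 9.63. Within the wide peaks the median fold was 30.5 at 2000 to 2499 bp, 33.1 at 2500 to 2999 bp, 38.5 at 3000 to 3999 bp and 40.5 at 4000 bp or more. The summits were therefore deep as well as the intervals long. The pileup at the summit, obtained from the fold and the −log10 p of each peak, had a median of 100 fragments in the wide peaks (range 16 to 537), against 25 in the peaks under 2000 bp. The control level, solved from the same values, had a median of 2.03 fragments in the wide peaks and 1.66 in the narrower ones. It stood at the lowest value of the list in 11.8% of the wide peaks and 29.5% of the narrower ones, and it is not a read count of the input.

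**Figure D1:**
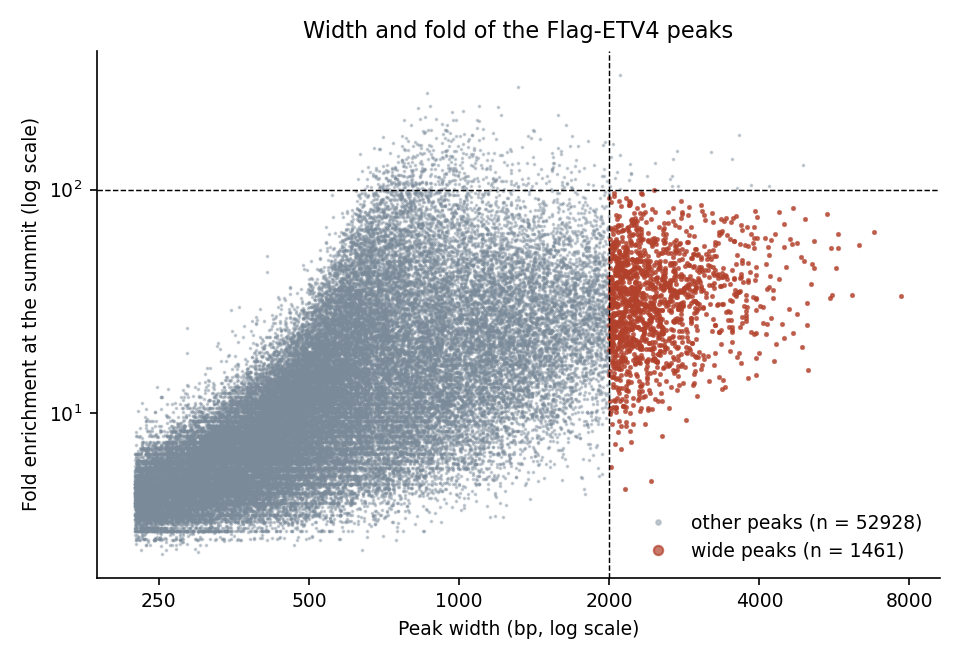
Width of each peak in bp (x axis, log scale) against fold enrichment at the summit (y axis, log scale). Each point is 1 peak, the dashed lines mark 2000 bp and a fold of 100, and the 1461 wide peaks are in red. The wide peaks run from 2000 to 7708 bp and have a median fold of 32.2.

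The highest folds were at CD70, which encodes a ligand of the TNF family (2460 bp, fold 99.6, pileup 280), at TRAM2 (2316 bp, fold 97.0, pileup 358), and at the shared ends of FBXL6 and SLC52A2, a riboflavin transporter gene (2048 bp, fold 96.9, pileup 331). An interval between genes, nearest to MYL10, followed with a fold of 95.3. The list went on with TM9SF3 (94.1), STAU1 (91.7), RBCK1 (91.4), FOXK1 (89.4), ZEB2 (89.2) and EIF4G3 (88.9). ZEB2, a repressor of epithelial genes, had its summit 2505 bp from the nearest gene end and inside the gene, while the summits at CD70, TM9SF3 and RBCK1 were 14, 6 and 39 bp from one. The lowest fold, 4.59, was that of an interval on chromosome 12 with 16 fragments at its summit (95% confidence interval 9.15 to 26.0), 85943 bp from any gene end. WNK3 (4.95), ANKMY2 with BZW2 (5.76), FMNL2 (6.93) and VPS28 with TONSL (7.30) came next, each with a gene end inside the interval and 17 to 34 fragments at the summit.

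The 15 widest peaks ran from 5071 to 7708 bp. The widest, of 7708 bp, began inside TNRC18, passed the end of that gene and covered LINC02983 and LINC03073 (fold 33.3, pileup 102). GASK1A followed with 6805 bp (fold 64.8), TGIF1, a homeobox repressor of TGF-beta responses, with 6324 bp (fold 56.6), GSE1 with 6136 bp (fold 33.9) and PPP1R18 with 5758 bp (fold 63.2). MIDN had 5749 bp (fold 54.7), the microRNA gene MIR124-3 had 5701 bp (fold 44.7), and HES7, a repressor of the Notch pathway, had 5592 bp together with the tRNA gene TRG-GCC2-6 (fold 33.8). JUNB, an AP-1 subunit, was covered whole by 5557 bp (fold 54.6). The remainder of the 15 widest were at BCOR (5538 bp), ZSWIM6 (5478 bp), TRIM8 (5155 bp), UBTF (5146 bp), EFNA5 (5108 bp) and SLC11A1 with CTDSP1 (5071 bp). Of these 15 intervals, those at GASK1A, GSE1 and PPP1R18 held no gene end, with summits 37433, 31808 and 5305 bp from the nearest one. Those at GSE1 and PPP1R18 held an inner RefSeq start of the gene, with the summit 2088 and 4463 bp after it.

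**Figure D2:**
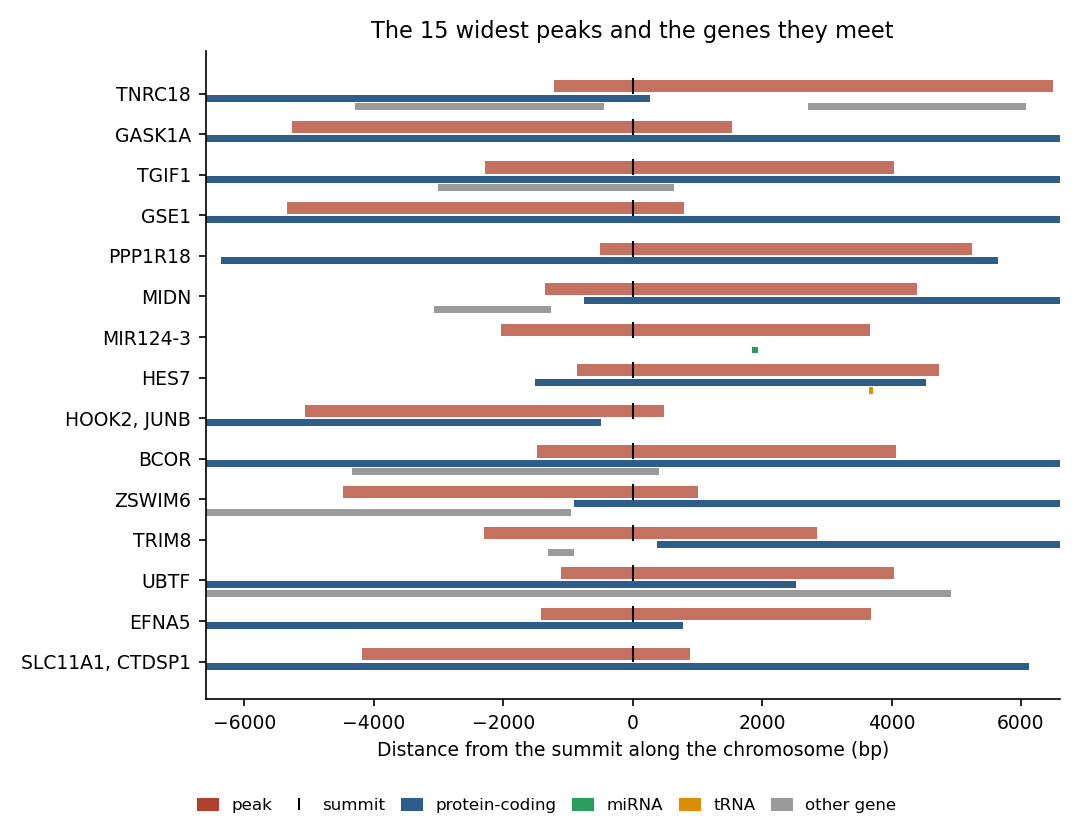
The 15 widest peaks aligned at their summits, with distance from the summit in bp along the chromosome (x axis) and 1 locus per row. Red bars are the peaks, black ticks the summits, and the bars beneath are RefSeq gene bodies by type, cut at the edge of the plot. HOOK2 and JUNB overlap in part, so their bars run together. The peaks run from 5071 to 7708 bp, and the summits at PPP1R18 and JUNB sit close to an edge.

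The summits of wide peaks were farther from the centre than those of narrower ones. On a scale from 0% at the centre to 100% at an edge, its median position was 41.5% in the wide peaks and 21.5% in the peaks under 2000 bp. Split by distance to the nearest edge, 25.9% of the wide peaks (95% confidence interval 23.7 to 28.2%) had the summit at 10 to 20% of the width, 23.3% at 20 to 30%, 24.1% at 30 to 40% and 24.2% at 40 to 50%. The summits were thus spread almost evenly along the intervals outside the outermost 10%, which held 2.46%. In the peaks under 2000 bp, 46.8% were at 40 to 50% of the width and 5.63% at 10 to 20%. By width, the median position on that scale was 19.9% below 500 bp and also at 500 to 999 bp, 34.3% at 1000 to 1499 bp, 37.9% at 1500 to 1999 bp, 39.9% at 2000 to 2499 bp and 44.5% at 3000 bp or more. The largest step was thus near 1000 bp and not at the width limit.

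The summits nearest to an edge relative to the width were at FGF11, with 115 bp of 2184 bp, and TLK2, with 127 bp of 2032 bp. SMAD7, the inhibitory SMAD of TGF-beta signalling, had its summit 323 bp from an edge of 4617 bp and 1914 bp before the start of the gene. The summit of the peak over ZNF580 and ZNF581 was 293 bp from an edge of 4098 bp, and that at EGR3 was 336 bp from an edge of 4530 bp. These summits described 1 flank of intervals that reached kilobases to the other side.

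Wide peaks lay at the ends of genes. An end of a protein-coding gene was inside 1090 of the 1461 intervals, or 74.6% (95% confidence interval 72.3 to 76.8%), whereas over all peaks this share was 16.5%. With genes of any type it was 1187 intervals, or 81.2%, against 19.6% over all peaks. A long interval meets more gene ends through its length alone, so the position of the summit, a single base measured without the width, was compared as well. The summit was within 1 kb of a protein-coding gene end in 933 wide peaks, or 63.9% (61.4 to 66.3%), and in 20.6% of all peaks. The share was 68.8% at 2000 to 2499 bp, 61.4% at 2500 to 2999 bp and 49.8% at 3000 bp or more. It was already 65.1% at 1500 to 1999 bp and 52.8% at 1000 to 1499 bp, but 20.0% at 500 to 999 bp and 8.23% below 500 bp.

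The depth of the summits moved with this result, so the shares were also taken among peaks of like pileup. With 26 to 50 fragments at the summit, 58.8% of 160 wide peaks (51.0 to 66.1%) and 22.3% of 11935 peaks under 2000 bp (21.6 to 23.1%) had the summit within 1 kb of a protein-coding gene end. With 76 to 100 fragments the values were 59.5% (53.9 to 64.8%) and 32.7% (31.0 to 34.4%), and with more than 200 fragments 66.9% (59.1 to 73.8%) and 21.2% (19.1 to 23.4%). The wide peaks were above the narrower ones in each of the 7 ranges of pileup. Peaks under 2000 bp were taken here at any fold, up to 288, and the wide peaks only below 100. The ranges were therefore not matched for fold.

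**Figure D3:**
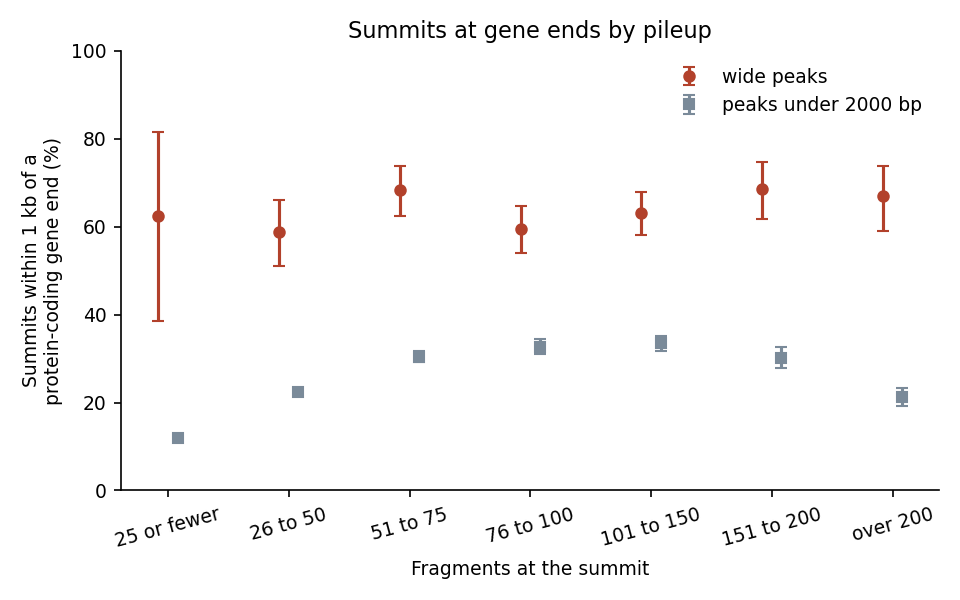
Share of peaks whose summit lies within 1 kb of a protein-coding gene end (y axis, percent), by the number of fragments at the summit (x axis). Points are shares and bars Wilson 95% confidence intervals, red for wide peaks and grey for peaks under 2000 bp of any fold. The red points lie between 58.8 and 68.6%, the grey ones between 12.0 and 33.5%.

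Of the wide peaks, 274 held no gene end of any type, and 220 of these were wholly inside a gene. A gene end here is an outermost end over all transcripts, and 93 of the 274, or 33.9%, held an inner RefSeq start of a protein-coding gene. Their summits were a median of 4762.5 bp from the nearest end, with a largest distance of 117399 bp. They were like the others in fold, with a median of 31.1 against 32.4, in width, with 2317 against 2387 bp, and in pileup, with 93 against 102 fragments. STAU1, an RNA-binding protein gene, was 1 of these, with a fold of 91.7 and its summit 30991 bp from a gene end, but 30 bp after an inner start of STAU1.

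The direction of transcription was known for genes with a RefSeq promoter sequence, which were not used here for chromosome 8, where 70 wide peaks lie. The start of a protein-coding gene was inside 1001 wide peaks. Starts of a single gene were inside 882 of them and starts of a pair of genes inside 114, of which 107 were pairs on opposite strands. Pairs were about as frequent in peaks of 1000 to 1999 bp, with 478 among 3990 peaks with a start, 441 of them on opposite strands. Around the most upstream start of the 882, the intervals reached a median of 859 bp upstream (quartiles 508.5 and 1295 bp) and 1599.5 bp downstream (1194 and 1981.5 bp). The reach was longer on the downstream side in 646 of 882, or 73.2% (70.2 to 76.1%). The summit was downstream of the start in 587, or 66.6% (63.4 to 69.6%), at a median of 228.5 bp after it.

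This lean towards the gene body was present in narrower peaks too. At 1000 to 1999 bp the reach was longer downstream in 75.8% of 3502 peaks (74.4 to 77.2%) and the summit lay downstream in 65.2% (63.7 to 66.8%), and below 1000 bp the shares were 71.0% and 63.8%. The wide peaks thus covered both sides of a start, with about the same division as shorter intervals. Of the wide summits, 133 were over 1 kb downstream and 46 over 1 kb upstream of the start, against 68 and 6 of the 3502 peaks of 1000 to 1999 bp, and the width limits how far a summit and a start in the same interval can be apart. The longest reach downstream was at TGIF1 (5616 bp), followed by MIDN (5149 bp) and PPP1R18 (4971 bp).

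**Figure D4:**
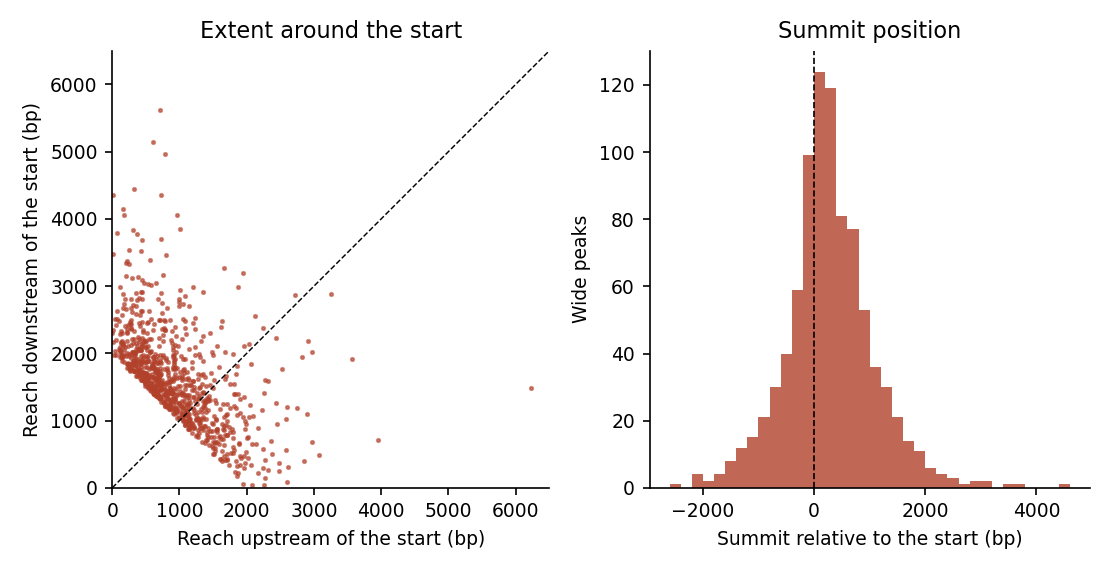
Left, reach of the 882 wide peaks with the start of a single protein-coding gene, upstream (x axis, bp) and downstream (y axis, bp) of that start, with equal reach on the dashed line. Right, number of these peaks (y axis) by the position of the summit relative to the start in bins of 200 bp (x axis, positive downstream). Points above the line make up 73.2%, and the median summit is 228.5 bp downstream.

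Whole genes were spanned by 72 wide peaks, which together covered 95 genes of any type. Of these, 23 were protein-coding, 26 tRNA, 26 microRNA and 19 lncRNA genes, and 1 was a transcribed pseudogene. The shares were 0.115% of 20037 protein-coding genes and 0.104% of 18303 lncRNA genes. Other peaks of the list alone spanned another 23 protein-coding and 11 lncRNA genes. The protein-coding genes spanned by wide peaks included the immediate early genes IER3, IER5L, JUNB and ID1. Another was CEBPD, which encodes a C/EBP transcription factor (2919 bp, fold 25.2). HOXB2 (4920 bp, fold 47.7), a homeobox gene, ZNF580 (4098 bp, fold 60.9), MRPS34 (3932 bp, fold 32.6), PHLDA2 (3000 bp, fold 11.9), MT2A, a metallothionein gene (2934 bp, fold 39.4), H4C5, a histone H4 gene (2502 bp, fold 21.8), and RPL36 (2033 bp, fold 21.4) were also spanned. These are short genes, from 412 bp for H4C5 to 2710 bp for IER5L among those named here.

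The tRNA genes, transcribed by RNA polymerase III, came in groups. The 26 genes lay in 14 wide peaks and are 5.87% of the 443 tRNA genes in the table. Of protein-coding genes, 0.115% were spanned whole. By another measure, 6.44% of those with a promoter sequence had the outermost start inside a wide peak. Another 95 tRNA genes were spanned only by other peaks of the list, for a total of 121. The interval with the most gene ends, 12, was 4763 bp on chromosome 17 over BORCS6, MIR4521 and the tRNA genes TRW-CCA3-3, TRS-GCT4-3, TRT-AGT1-1 and TRI-AAT5-5 (fold 57.7, pileup 145). Its summit was at 88.5% of the width, 229 bp from a gene end. An interval of 3676 bp on chromosome 14 over ANG, RNASE4 and 3 tRNA genes held 8 gene ends (fold 16.8), and one of 2927 bp over DALRD3, NDUFAF3, MIR191 and MIR425 held 6 (fold 18.4). The microRNA genes spanned were 1.36% of 1913, a lower share than that of tRNA genes, and of 1199 snoRNA genes, 11 were spanned by other peaks and 0 by a wide one.

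The share of peaks with a neighbour was close in wide and narrower peaks at long distances and less close at short ones. Another peak lay within 5 kb of the edges of 693 wide peaks, or 47.4% (44.9 to 49.997%), and over all peaks the share was 43.0%. Within 2 kb the shares were 32.9% in the wide peaks and 26.6% in those under 2000 bp, within 10 kb 61.5 and 57.2%, and within 50 kb 90.6 and 88.8%. The gap was 500 bp or less in 14.0% of the wide peaks and 8.10% of the narrower ones, and no gap in the list was below 225 bp. The nearest peak within 5 kb had a median width of 576 bp and a median fold of 9.37 beside a wide peak, and 522 bp and 9.63 beside a narrower one. A wide peak had the higher fold of the pair in 85.1% of the 693 cases and a narrower one in 48.7% of its cases, as the difference in fold between the classes implies.

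Some wide peaks came in chains. Another wide peak was within 50 kb of 255 of them, or 17.5%, and a wide peak was within 50 kb of 10.4% of the peaks under 2000 bp. Joining wide peaks across gaps of up to 50 kb gave 91 pairs, 13 chains of 3, 6 chains of 4 and 2 chains of 5. A chain of 5 covered 97.8 kb of chromosome 1, with SAMD11 in 2 of its intervals, then NOC2L with KLHL17, HES4 and AGRN, and folds from 25.1 to 67.9. The other, of 74.8 kb on chromosome 5, ran from a group of tRNA genes through TRIM41 to TRIM52, with folds from 24.4 to 41.6. On chromosome 19, a chain of 4 held PPP1R13L, the DNA repair gene ERCC1, FOSB and VASP, an actin regulator (folds 41.6, 63.5, 56.0 and 71.9). On chromosome 11, the interval over CCDC85B and an end of FOSL1 stood in a chain with MUS81, FIBP and DRAP1. The most peaks within 50 kb, 21, surrounded a wide peak at LINC02075, and those at HOXB3 with HOXB4, SP6, LOC105371912 and BCAN-AS2 had 20 each. Wide peaks made up 4.61% of the peaks on chromosome 17 (3.89 to 5.46%) and 4.31% on chromosome 19 (3.59 to 5.16%), against 1.81% on chromosome X (1.25 to 2.62%) and 2.69% in all.

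The genes of the lists below were chosen with earlier results of these data known, so their shares describe the lists and test nothing. An outer end was inside a wide peak for 29 of 42 immediate early genes, or 69.0% (54.0 to 80.9%), while it was for 1310 of 20037 protein-coding genes, or 6.54%. By the outermost start alone, it was 21 of the 34 genes with a promoter sequence, or 61.8% (45.0 to 76.1%), against 6.44%. Any peak of the list covered an end of 37 of the 42 and of 49.9% of all protein-coding genes, so that 78.4% of the immediate early genes with a peak at an end had a wide one, compared with 13.1% of all genes. The 30 wide peaks at these genes had a median width of 3274.5 bp (range 2108 to 5557 bp), a median fold of 41.0 (13.3 to 83.0) and a median pileup of 138 fragments (57 to 390). At 3000 bp or more were 17 of the 30, and 16.8% of all wide peaks.

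All 7 genes of the AP-1 subunits, FOS and JUN proteins that bind DNA in pairs, had an outer end inside a wide peak. FOSB had 3793 bp with a fold of 56.0 and 263 fragments at the summit (95% confidence interval 232 to 297), 428 bp after the start. At FOS, 3086 bp with a fold of 29.7 lay mostly upstream, and the summit was 1636 bp before the start. The peaks at the remaining subunits were 4767 bp at FOSL2 (fold 27.9), 2990 bp at JUN (fold 36.3) and 2131 bp at JUND (fold 55.4). At FOSL1 (chr11:65892049-65900545) the interval, chr11:65889919-65892220, touched only the outermost bases of the gene. It was 2302 bp wide with a fold of 13.3, spanned the neighbouring gene CCDC85B whole and had its summit 177 bp after the start of that gene. JUN and JUND had summits on opposite sides of their starts, 390 bp after and 536 bp before. At JUNB (chr19:12788742-12794298) the summit, with 201 fragments (174 to 231), was 2323 bp after the start and 494 bp beyond the end of the gene, which spans chr19:12791486-12793315.

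Among the zinc-finger factors, EGR1 had a wide peak at chr5:138463683-138466303 (2621 bp, fold 52.3), with 175 fragments at a summit in the promoter shown above (150 to 203). The interval reached 1796 bp upstream and 824 bp into the gene, which lies at chr5:138465479-138469303. EGR3 (chr8:22687659-22693480) had 4530 bp (fold 45.1), with the summit at chr8:22695907, outside the gene. EGR4 had only a peak of 604 bp (fold 10.6) and EGR2 none at its ends. KLF2 had 2785 bp (fold 26.5) and KLF10 4386 bp (fold 79.5, pileup 350), the latter also with its summit outside the gene. KLF4 had a peak of 910 bp (fold 19.6) instead. The members of this class therefore differed among themselves.

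Genes of RNA decay and negative control were present as well. ZFP36, which binds AU-rich messages for decay, had a wide peak at either end, of 2385 bp (fold 47.5) over the start and 2108 bp (fold 44.4) over the end, separated by 287 bp. Its relatives ZFP36L1 (4151 bp, fold 24.9) and ZFP36L2 (3632 bp, fold 34.9) also had wide peaks. HES1, a Notch effector, had the highest fold of the immediate early list, 83.0, over 4673 bp, with 390 fragments at the summit (352 to 431) and the summit 1093 bp before the start. Wide peaks were further seen at IER2, IER3, IER5, IER5L, MYC, NR4A2, NR4A3, BTG1, SRF, PPP1R15A, GADD45B, MAFF, NFKBIA and ID1. The interval at MYC was 4487 bp with a fold of 21.7 and 94 fragments at the summit. That at IER2 lay beyond the start, with its summit 5741 bp after it and past the far end of the gene. In KLF6 and SGK1 a wide peak was inside the gene but not at an outer end. Only narrower peaks covered an end of EGR4, KLF4, KLF6, BTG2, MCL1, PTGS2, ID2 and ID3. No peak covered an end of ATF3, EGR2, NR4A1, RHOB or SGK1.

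Feedback genes of the ERK pathway encode the phosphatases and adaptors that shut the pathway down. An end was inside a wide peak for 7 of 18 of them, or 38.9% (20.3 to 61.4%), beside 6.54% of all protein-coding genes. Of the 16 with any peak at an end, 43.8% had a wide one, beside 13.1% of all genes. Of the MAP kinase phosphatases, DUSP6 had 3908 bp (fold 61.1) with the summit 1667 bp before the start and 287 fragments (255 to 322). DUSP1 had 2220 bp (fold 35.4) and DUSP5 2520 bp (fold 29.0), whereas DUSP4 (1780 bp, fold 26.4) and DUSP16 (1613 bp, fold 45.5) fell under the width limit. DUSP2 (1269 bp, fold 40.6), DUSP7 (1210 bp, fold 13.5) and DUSP8 (1597 bp, fold 35.5) were further below it. No peak covered an end of DUSP10 or DUSP14. Of the Sprouty and SPRED inhibitors, SPRY2 (3591 bp, fold 46.4), SPRY4 (2880 bp, fold 58.1) and SPRED2 (3364 bp, fold 30.7) had wide peaks, and SPRED1 missed the limit with 1977 bp (fold 42.2). At SPRY1 the wide peak was at an inner start. PHLDA1 was the remaining gene with a wide peak at an end (2704 bp, fold 20.0). SPRED3 (1604 bp, fold 34.8) and ERRFI1 (665 bp, fold 6.33) had only narrower peaks there.

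Other signalling lists held smaller numbers. For TGF-beta targets it was 5 of 14, or 35.7% (16.3 to 61.2%), namely SMAD3 (3050 bp, fold 50.1), SMAD7 (4617 bp, fold 60.3), SKIL (2582 bp, fold 38.6), TGFB1 (3945 bp, fold 41.4) and TGFB2 (2459 bp, fold 19.6). TGIF1 of this list had its wide peak inside the gene. For YAP targets it was 6 of 18, or 33.3% (16.3 to 56.3%), at AJUBA, AXL, CRIM1, PTPN14, ARHGEF17 and FJX1, with folds from 22.7 to 48.8. Both shares stand beside 6.54% of all protein-coding genes, and their intervals are wide because the lists are short.

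Genes of replication and of ribosomes had peaks that were mostly narrow. Any peak covered an end of 43 of 56 replication genes, or 76.8%, beside 49.9% of all protein-coding genes. A wide one covered that of 2, or 3.57% (0.985 to 12.1%). These were MCM7, a subunit of the replicative helicase (2187 bp, fold 61.9, pileup 270), and ORC4, a subunit of the origin recognition complex (2134 bp, fold 19.9, pileup 81). For cytosolic ribosomal protein genes it was 67 of 79 with any peak, or 84.8%. A wide one was at 4 of them, or 5.06% (1.99 to 12.3%), namely RPL7, RPL10, RPL28 and RPL36. Both shares of wide peaks among all genes of a list were near the 6.54% of all protein-coding genes. Among genes with any peak at an end, 4.65% of the replication and 5.97% of the ribosomal ones had a wide one, beside 13.1% of all genes. No wide peak was at ETV1, ETV4 or ETV5. Of 12 protein-coding genes at the origins and promoters under study, JUNB and EGR1 had wide peaks. Peaks below the width limit were at the ends of CTCF (1876 bp, fold 37.7), MCM4 (1603 bp, fold 17.1), TOP1 (1554 bp, fold 31.0), PIK3CB (1297 bp, fold 51.4) and HPRT1 (825 bp, fold 17.5). Lower folds were found at MCM5 (807 bp, fold 5.68), MCM2 (447 bp, fold 4.84), LMNB2 (678 bp, fold 4.46) and MCM10 (561 bp, fold 3.97), and no peak covered an outer end of ORC1.

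The ETS motif was counted in the promoters that the peaks contained. A promoter was the RefSeq window of 250 bases before and 50 after a start, and it was counted where it lay wholly inside a peak. The motif CCGGAAG, on either strand, was in 174 of 1472 protein-coding promoters in wide peaks, or 11.8% (10.3 to 13.6%). It was in 24.3% of 6830 promoters in peaks under 2000 bp (23.3 to 25.3%), in 4.66% of those with a start outside peaks and in 12.8% of all 22046. The share under wide peaks was thus near that of all promoters and below that of the narrower peaks. The 22046 windows belong to 15842 genes, and a peak can hold several windows. The intervals treat windows as independent, so they may be too narrow and are no test between classes. The median GC content was 70.7% in the wide and 68.7% in the narrower peaks, and the median number of CpG dinucleotides 31 and 30, while promoters outside peaks had 55.0% and 8.

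From 500 bp upwards, the share was lower in each wider class. It was 29.1% of 1933 promoters in peaks of 500 to 999 bp (27.1 to 31.1%), 25.1% at 1000 to 1499 bp, 17.7% at 1500 to 1999 bp, 14.0% at 2000 to 2499 bp, 10.5% at 2500 to 2999 bp and 7.09% of 282 promoters at 3000 bp or more (4.64 to 10.7%). These intervals also treat windows of the same gene or peak as independent. The AP-1 motif TGACTCA was in 4.08% of promoters in wide peaks (3.18 to 5.21%), in 2.65% of those in narrower peaks (2.29 to 3.06%) and in 4.01% of all promoters. The core GGAA alone, which includes every CCGGAAG, was in 93.9 and 95.8% and in 95.1% of all promoters, so the core was present in nearly every window.

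**Figure D5:**
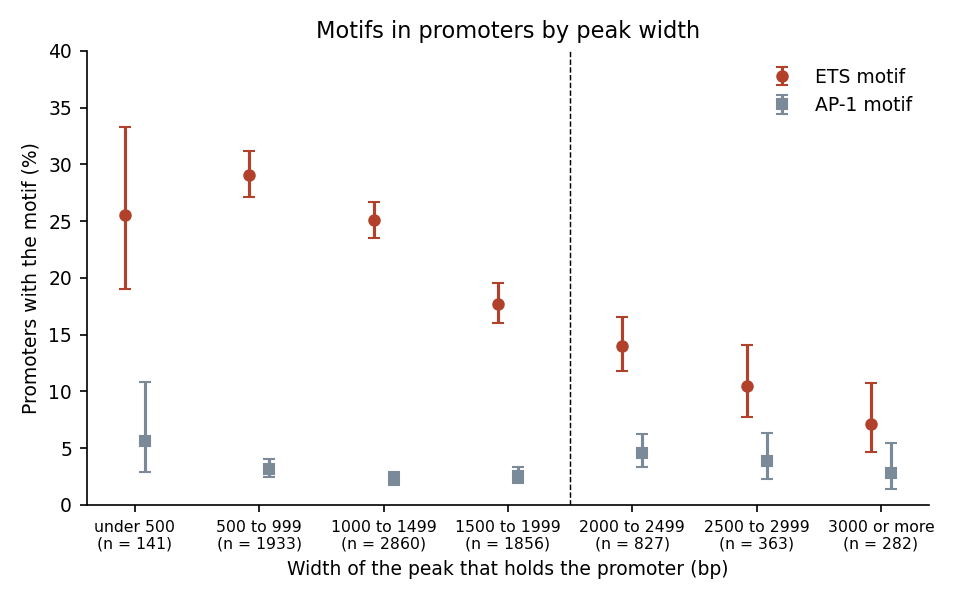
Share of protein-coding promoters that hold the ETS motif (red) or the AP-1 motif (grey) on either strand (y axis, percent), by the width of the peak that contains the promoter (x axis, bp, fold below 100). Bars are Wilson 95% confidence intervals and the dashed line marks 2000 bp. The ETS share goes from 29.1% at 500 to 999 bp to 7.09% at 3000 bp or more, and the AP-1 share stays between 2.27 and 5.67%.

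The position of the summit moved with this result, and its part in it was not tested. Of the 1472 promoters in wide peaks, 264 held the summit themselves, and of these 62 had the motif, or 23.5% (18.8 to 29.0%). In the narrower peaks 3018 of 6830 held the summit, with the motif in 35.0% (33.3 to 36.7%). The comparison was repeated within ranges of pileup, again with narrower peaks of any fold. With more than 200 fragments at the summit the shares were 12.4% of 153 promoters in wide peaks (8.10 to 18.6%) and 39.1% of 322 in narrower ones (34.0 to 44.6%), and with 51 to 75 fragments they were 7.46 and 23.5%. With 26 to 50 fragments the shares were closer, at 15.6% (10.5 to 22.5%) and 19.0% (17.2 to 20.8%).

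Where the motif and the summit did share a promoter, their spacing was alike. The motif was a median of 35.5 bp from the summit in the 62 promoters in wide peaks and 32 bp in the 1055 in narrower ones. It was within 50 bp in 66.1% (53.7 to 76.7%) and 66.8% (63.9 to 69.6%). The promoters of TOMM6, a mitochondrial import gene, and FKBP1A, which encodes the receptor of FK506, printed above, are examples at 1 and 7 bp. EGR1, ZFP36 and KLF2 are examples of the promoters without CCGGAAG, which made up 76.5% of those that held the summit of a wide peak.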

How the data were processed

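ChIP was done on A549-shETV4 cells carrying Flag-ETV4, with an input as control. Per the labels, libraries were PCR amplified and gel selected, and the submitters' processing notes name Bowtie2 2.4.1, SAMtools, MACS2 2.2.7.1, deepTools 3.5.0 and the build hg38. The settings and the handling of duplicate reads are not given in the sources used here. The authors deposited 1 peak list of the immunoprecipitate, called without pooled replicates. It holds intervals and summit offsets, the fold enrichment as a ratio to the control, −log10 p-values and −log10 q-values. The display score, which the authors' software derived for browsers, was not used. Coordinates are 1-based.

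Each summit's pileup and control level were solved from the fold and −log10 p that the authors deposited, with Poisson tails and 1 added to both. On 20000 simulated peaks this recovered 100% of the pileups, and on the real list the largest distance from a whole number was 0.00914. Peaks were compared with the outer ends of 59679 RefSeq genes on GRCh38, of which 20037 are protein-coding, and with 35085 RefSeq promoter windows of 27303 genes, matched by gene ID. Gene names beyond these tables, exons and sequence outside the windows were not analysed here. The genes named are those at the 15 widest members, the 10 of highest and 5 of lowest fold, the 3 narrowest, the 3 peaks just under the width limit, the 5 with the summit nearest an edge, the 5 with most gene ends, the 5 with most peaks within 50 kb, members that span a protein-coding gene, and members at genes of 8 lists. PHOSPHO1, ERF and PDE11A, the genes of the chains of wide peaks and the genes of the printed motif stretches were named after their values were seen, as were the genes of the lists without a wide peak. The members and lists were chosen with earlier results of these data known. The comparisons within ranges of pileup, by strand and by width class were added after the values had been seen. With 1 immunoprecipitate no test between groups was made. Python 3.11.15 was used with pandas 2.3.3, numpy 2.4.6, matplotlib 3.10.9 and scipy 1.17.1.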

Additional observations from a re-analysis of the deposited data

How the results depend on the processing

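The width limit set the number and several features of the wide peaks. With limits of 1500, 2500 and 3000 bp there were 3639, 592 and 245 members, and their median fold was 28.8, 35.1 and 38.8 and their median pileup 90, 106 and 124 fragments. In the same order, the share with another peak within 5 kb was 43.6, 51.7 and 55.5% and the share spanning a whole gene 3.65, 6.25 and 8.16%. At 1500 and 3000 bp the median position of the summit between centre (0%) and edge (100%) was 39.3 and 44.5%, and a protein-coding gene end was inside 69.4 and 78.4%. The summit was within 1 kb of such an end in 56.6% at 2500 bp and 49.8% at 3000 bp. Without a limit on fold there were 1488 members, and the medians of fold, pileup and summit position and the shares with a gene end, a near summit, a whole gene or a neighbour stayed within their confidence intervals. That setting was not run for the motif and the gene lists. Joining peaks up to 500 bp apart first gave 1987 members.

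The choice of genes, windows and neighbours moved the shares by construction. With genes of any type, 81.2% held an end and 70.8% had the summit within 1 kb of one, with 1 kb added on either side 80.2% held a protein-coding end, and within 3 kb the summit share was 81.0%. Whole protein-coding genes were spanned by 1.57%, and at least 50% of a gene by 15.4%. Another peak was within 2 kb of 32.9% and within 10 kb of 61.5%. Among peaks of fold over 5 the 5 kb share was 41.9%, and among those of −log10 q over 10 it was 37.7%. The motif share was 93.9% with the core GGAA, 23.5% where the window held the summit and, added after the data were seen, 13.8% at a pileup of 100 or more. For the immediate early genes, the outermost start alone gave 61.8%. No paired analysis was possible because there was 1 immunoprecipitate without replicates. A single library gives no spread between samples, the summit alone stands for an interval of kilobases, and the outer ends of genes do not show inner promoters. The median pileup of 100 fragments limits the precision of a single peak.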
